A study of Homo sapiens with 18 samples.

Results

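PEA2 is a platinum-resistant high-grade serous ovarian cancer line, and 2049 of the 86965 windows measured on chromosomes 1 to 22 were open in it and had a mean at least 3 times that of any of 5 other ovarian cancer lines. A window here is 1000 bp of the genome (build GRCh37, also called hg19), with windows starting every 900 bp, and accessibility is the ATAC-seq read density in FPKM (fragments per kilobase of window, scaled to the sequencing depth of the library). The windows were chosen by these measured values: every PEA2 library had to lie over 2 FPKM, and the PEA2 mean had to be at least 3 times the highest mean of the other 5 lines. Values of PEA2 against the other lines are therefore a description of the choice and carry no test. The authors had also filtered windows by read depth, so windows low in the other lines may be among the 86965 through their PEA2 reads.

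The study compared 6 lines with 3 ATAC-seq libraries each, 18 in all, grown under the same conditions in RPMI-1640 with glutamine and fetal bovine serum. PEA1 (platinum sensitive) and PEA2 (resistant) came from the same patient's ascites before treatment and after relapse, and PEO1 (sensitive) and PEO4 (resistant) came from another patient, both after platinum chemotherapy, before and after resistance appeared in the clinic. CP70 was derived from the ovarian line A2780 by cisplatin selection in culture. The labels name no drug treatment of these libraries, each state is represented by 1 line, and the labels give the libraries replicate numbers without saying that they were separate cultures, so p-values measure the spread between these libraries only. In bulk chromatin, more DNA copies of a region, more cells with the region open and a more open region in each cell cannot be told apart. Total reads implied by the values ranged from 8972042 to 60495462 per library and from 17300163 to 22537463 in PEA2.

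ATAC-seq uses the Tn5 transposase to insert sequencing adapters where DNA is not covered by nucleosomes, so that promoters and enhancers in use gather reads. Distal enhancers differ more between cell states than promoters do, and are opened by pioneer factors such as the forkhead (FOXA), GATA, SOX and POU proteins together with AP-1. LINE-1 retrotransposons are the most abundant self-copying elements of the human genome, and their promoter end, normally silenced in somatic cells by DNA methylation, is known for losing that silencing in many epithelial cancers.

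The first sequences are shown because the octamer letters ATGCAAAT (ATTTGCAT on the opposite strand), the sequence POU-family factors recognise, were more frequent in members than in all windows. They are stretches of 160 bases from the GRCh37 genome, written 5′ to 3′, with the octamer in capitals in 3 members and the forkhead letters TGTTTAC in capitals in the highest member of FHOD3. Of the 18 members nearest to FHOD3, only 1 held the forkhead letters. The octamer was in 2 of the 11 members nearest to RIN2 and 2 of the 24 nearest to FOXA2.
Intron of RIN2, chr20:19895036-19895195, plus strand: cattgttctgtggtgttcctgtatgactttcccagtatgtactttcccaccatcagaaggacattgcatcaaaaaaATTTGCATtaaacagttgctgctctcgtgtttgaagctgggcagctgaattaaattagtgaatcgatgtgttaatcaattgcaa
Upstream of FOXA2, chr20:22777039-22777198, plus strand: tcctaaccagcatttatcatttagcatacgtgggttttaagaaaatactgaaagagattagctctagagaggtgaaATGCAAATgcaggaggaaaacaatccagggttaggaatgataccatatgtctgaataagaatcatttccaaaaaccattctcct
Distal to MAF, chr16:80068963-80069122, plus strand: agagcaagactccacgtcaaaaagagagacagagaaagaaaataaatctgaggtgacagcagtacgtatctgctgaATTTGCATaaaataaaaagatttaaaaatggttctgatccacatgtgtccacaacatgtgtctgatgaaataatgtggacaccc
Intron of FHOD3, chr18:34215889-34216048, plus strand: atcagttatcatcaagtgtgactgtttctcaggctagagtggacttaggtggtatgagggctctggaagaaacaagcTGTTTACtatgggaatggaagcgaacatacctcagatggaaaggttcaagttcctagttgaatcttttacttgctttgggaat

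AP-1 letters (TGANTCA, where N is any base) are shown in capitals for 3 of the highest members.
Near KRBA1, chr7:149387401-149387560, plus strand: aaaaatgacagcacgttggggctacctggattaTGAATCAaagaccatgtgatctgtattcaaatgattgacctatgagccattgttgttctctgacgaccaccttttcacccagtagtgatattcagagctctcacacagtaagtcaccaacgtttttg
Near C16orf82, chr16:26998559-26998718, plus strand: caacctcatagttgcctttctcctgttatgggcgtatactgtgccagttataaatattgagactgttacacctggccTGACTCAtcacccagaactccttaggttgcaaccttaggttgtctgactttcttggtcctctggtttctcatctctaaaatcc
Intron of CCNJL, FABP6 nearest, chr5:159688151-159688310, plus strand: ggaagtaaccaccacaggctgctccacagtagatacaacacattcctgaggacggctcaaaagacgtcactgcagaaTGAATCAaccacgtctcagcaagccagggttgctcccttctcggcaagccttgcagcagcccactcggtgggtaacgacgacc

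In the 2049 members, the median accessibility was 3.79, 2.89 and 3.24 FPKM in PEA2 replicates 1 to 3. The other 15 libraries had medians from 0.379 FPKM in CP70 replicate 1 to 0.561 FPKM in PEA1 replicate 2. The PEA2 libraries stood together and far above the rest, and replicate 2 was the lowest of them. Members held 0.759% ± 0.110 (SD, n = 3) of PEA2's reads, against 0.126% ± 0.00734 in PEA1 and 0.119% ± 0.00406 in PEO1. Over all windows of chromosomes 1 to 22 the order was different, with PEO1 (median 2.83 FPKM ± 0.0464) and PEO4 (2.26 ± 0.0129) above PEA2 (1.77 ± 0.153), PEA1 (1.22 ± 0.146), CP70 (0.836 ± 0.0026) and A2780 (0.684 ± 0.0444).

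**Figure D1:**
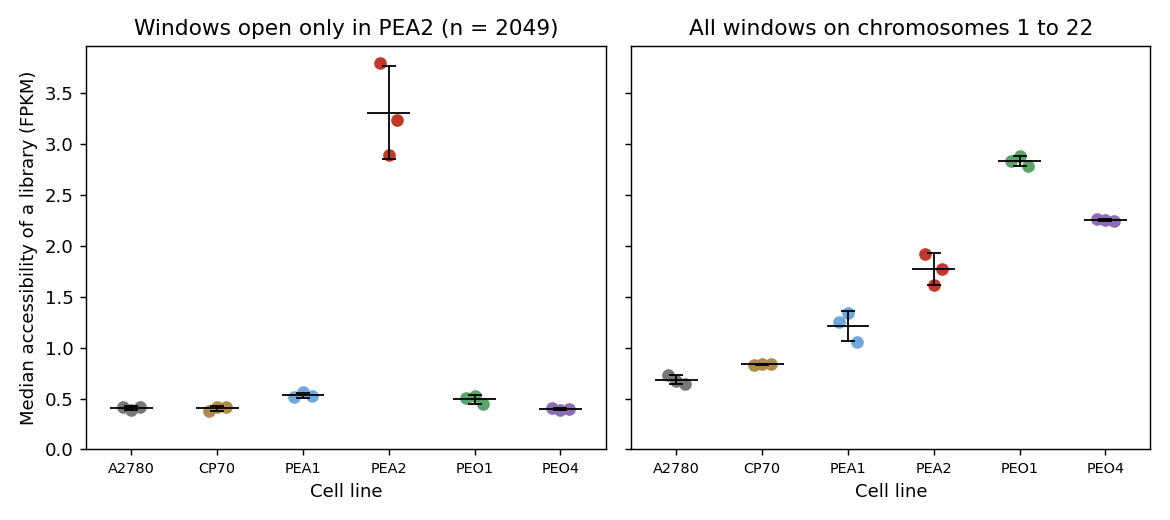
Median accessibility (FPKM) of each library, as points, over the 2049 windows open only in PEA2 (left) and over all windows of chromosomes 1 to 22 (right). Horizontal lines are the mean of 3 libraries and bars the SD. On the left the PEA2 libraries lie between 2.89 and 3.79 and every other library at or below 0.561, as the choice of windows requires, whereas on the right PEO1 is the highest line.

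The PEA2 mean of a member ranged from 2.09 to 15.7 FPKM, with a median of 3.30, and 13 members reached 10 FPKM. The ratio of the PEA2 mean to the highest other mean had a median of 4.31 and reached 18.4. The highest other mean had a median of 0.749 FPKM and reached 4.37, so that some members were also above 2 FPKM in another line. The ratio was at least 5 in 734 members (35.8%) and at least 10 in 73. In every one of the 2049 members the lowest PEA2 library was above the highest library of the other 5 lines, which the choice of windows makes likely. The line in second place was PEA1 in 712 members (34.7%), PEO1 in 612, CP70 in 309, PEO4 in 265 and A2780 in 151.

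The limits cut through a continuous distribution. A window near OPALIN was just inside the ratio, with a PEA2 mean of 6.31 FPKM against 2.10, and a window near ZFR was just outside it, at 6.07 against 2.03 FPKM. A window near LMX1A passed the minimum with its lowest PEA2 library at 2.02 FPKM, and a window near ZC3H15 fell just short of it at 2.00. In all, 312 members had a ratio under 3.3, 406 windows over the minimum had a ratio of 2.7 to 3, and 918 windows reached the ratio but not the minimum.

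**Figure D2:**
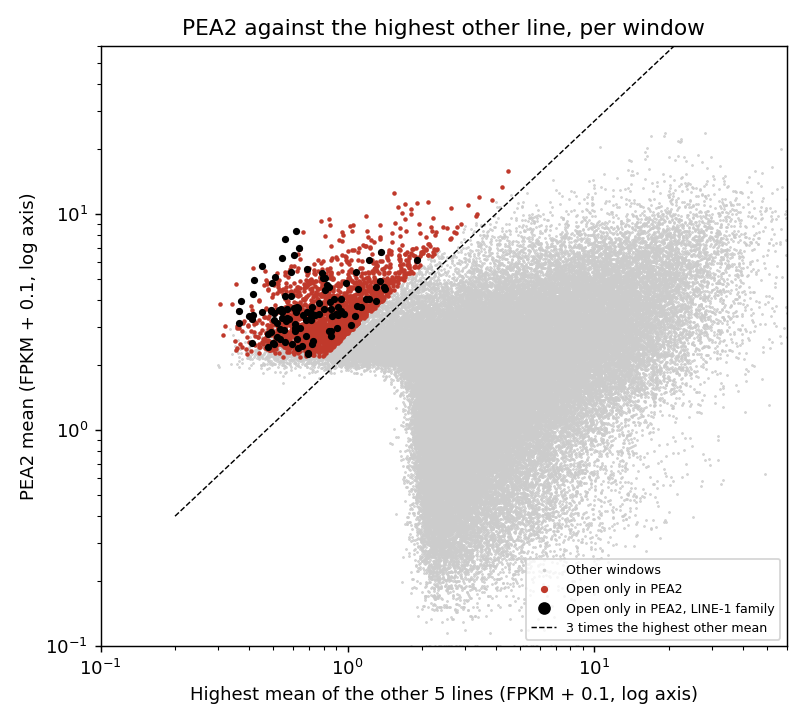
PEA2 mean against the highest mean of the other 5 lines for every window of chromosomes 1 to 22, both in FPKM plus 0.1 on log axes. Red points are the windows open only in PEA2, black points those of them that belong to the LINE-1 family described in the text, and the dashed line marks 3 times the highest other mean. The black points reach as far to the left and as high as most red ones.

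A LINE-1 promoter sequence was shared by many of the windows. The family was defined after values were seen, as the windows that share at least 10 runs of 16 letters, on either strand, with the member in the intron of CCL28. The name rests on knowledge of that element's sequence, as no repeat annotation was used here. It held 365 windows of the table, 110 of which were members (30.1%, against 2.36% of all windows), so that 5.37% of the members belonged to a family that made up 0.42% of the table. The same conditions were met by 1 family window in PEA1, by 15 in PEO1 and by none in A2780, CP70 or PEO4. Over all 86965 windows they were met by 325 in PEA1, 3357 in PEO1 and 1694 in PEO4. Requiring 5 or 20 shared runs in place of 10 gave shares of 28.6% and 31.6%.

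PEA2 was the highest line in 270 of the 365 windows (74.0%), against 16.7% of all windows, and in the remaining windows the highest line was PEO1 in 79, PEO4 in 11, PEA1 in 4 and CP70 in 1. Among the 255 family windows that were not members, PEA2 was the highest line in 160, with a median of 2.20 FPKM ± 0.396 against 1.26 ± 0.172 in PEO1. The family's median was 2.91, 2.20 and 2.53 FPKM in PEA2 replicates 1 to 3, while in PEA1 it lay between 0.481 and 0.530, in PEO1 between 0.405 and 0.446, in PEO4 between 0.349 and 0.448, in CP70 between 0.359 and 0.379 and in A2780 between 0.331 and 0.364. The PEA2 libraries did not overlap the others, whereas outside the family PEO1 and PEO4 had the higher medians. Because the family was built from a member and includes the 110 members, these values are a description. The authors had also filtered windows by read depth. Copies low in the other lines may therefore be among the 365 through their PEA2 reads, which favours PEA2 here. The study kept reads that aligned to 1 place in the genome, so copies too alike to place reads were not counted, and values of windows over close copies are uncertain.

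**Figure D3:**
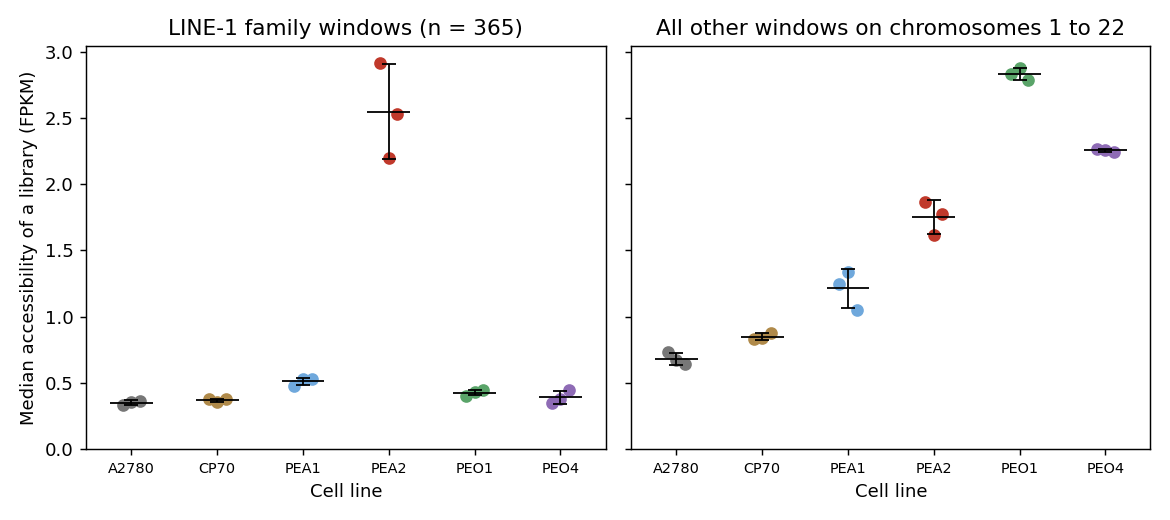
Median accessibility (FPKM) of each library over the 365 windows of the LINE-1 family (left) and over all other windows of chromosomes 1 to 22 (right). Points are libraries, lines the mean of 3 and bars the SD. PEA2 lies between 2.20 and 2.91 on the left, with all other libraries at or below 0.530, and is below both PEO lines on the right.

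LINE-1 members had larger ratios than the rest, with a median of 5.85 against 4.25 for the other members, and 17 of the 73 members at a ratio of 10 or more were of the family. They lay on 18 chromosomes and in 79 of the 5 Mb bins described below, 77 between genes and 31 in introns. The member in the intron of CCL28, a mucosal chemokine gene, measured 9.34, 7.17 and 8.30 FPKM in PEA2. In the other 15 libraries it measured between 0 and 0.863, with a median of 0.227. A member 220.2 kb from IRAK1BP1, on chromosome 6, measured 8.52, 6.18 and 7.90 FPKM against 0 to 0.606 in the other libraries. The member 29.8 kb from MGST1, which codes for a membrane-bound glutathione transferase, measured 6.76, 4.97 and 5.15 against 0.0838 to 0.524. Further copies lay near SLC15A2 (PEA2 mean 3.85 FPKM, ratio 14.2), GRIN3A (6.17, ratio 13.9), HSD17B4 (6.88, ratio 12.8) and SOX2 (5.03, ratio 12.3).

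Sequence motifs were counted as letter matches on both strands of the whole window, each motif on its own, so that matches of different motifs may overlap. A match is not evidence of a bound factor. The octamer ATGCAAAT was found in 204 members, 9.96%, against 5.06% of all windows. Its share was higher among members in every band of GC content (1.85 times at or below 40%, 1.52 times from 40 to 45%, 1.49 times from 45 to 50% and 1.95 times above 50%), and 2.03 times higher when the central 400 bp alone were searched. It was not a property of the LINE-1 copies, which held 8 of the 204, and outside the family the shares were 10.1% and 5.05%.

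The forkhead letters TGTTTAC were found in 383 members, 18.7%, against 11.7% of all windows. Above 50% GC the share was 2.54 times that of all windows, and 56 of those 106 members belonged to the LINE-1 family, where 71.5% of windows held the letters. Outside the family the shares were 15.4% among members and 11.4% among all windows, and above 50% GC they were 10.6% and 7.45%. With the family included, the ratio of members to all windows was 1.08 at or below 40% GC, 1.07 from 40 to 45% and 1.37 from 45 to 50%. Among windows that met the same conditions in PEO1, PEO4 and PEA1, the forkhead shares were 14.1%, 11.4% and 10.8%.

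AP-1 letters were present in 53.1% of members and 38.3% of all windows, but within GC bands the ratios were 0.992, 1.06 and 1.10 up to 50% GC and 1.90 above it. Members had a lower GC content than all windows, and the share of these letters falls with GC content, so that the unbanded difference holds both. Only 14 of the 1089 members with AP-1 letters were of the LINE-1 family. GATA letters (AGATAA, 47.8% against 35.0%) and SOX letters (ACAATGG, 15.1% against 10.2%) were also more frequent in members. By GC band, from the lowest to the highest, the ratios were 1.12, 1.06, 1.05 and 1.70 for GATA and 1.16, 1.48, 1.12 and 1.40 for SOX. SP1 letters (GGGCGG, 19.3% against 45.6%), the CTCF core AGGGGGC (12.5% against 24.7%) and ETS letters (CCGGAAG, 4.69% against 10.1%) were less frequent without regard to GC. In the same bands the ratios were 0.568, 0.906, 0.657 and 0.495 for SP1, 0.567, 0.906, 0.887 and 0.587 for CTCF, and 1.23, 1.03, 0.635 and 0.497 for ETS, which was thus not lower up to 45% GC. The NRF1 letters GCGCATGCG were found in no member and in 0.999% of all windows. Windows that met the same conditions in PEO1 had shares of 65.7% for AP-1, 50.1% for GATA, 14.7% for SOX, 15.7% for SP1, 10.3% for CTCF and 3.46% for ETS. In PEO4 and PEA1 the AP-1 shares were 33.9% and 35.7%, the GATA shares 39.8% and 31.1% and the SOX shares 10.8% and 9.85%. SP1, CTCF and ETS shares were below those of all windows in both.

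Members lay away from promoters. By the centre of the window and GENCODE protein-coding transcripts, 1102 members (53.8%) were intergenic and 841 (41.0%) intronic, against 32138 and 32338 of all 86965 windows (the latter 37.2%), and 31 (1.51%) covered a promoter (from 1000 bp upstream to 100 bp downstream of a start), against 18.9%. With all basic transcripts, noncoding ones included, promoters rose to 4.64% and the intergenic share fell to 36.0%. The median distance to the nearest protein-coding start was 49.3 kb, compared with 12.5 kb for all windows, 25.9 kb for windows that met the same conditions in PEA1, 90.8 kb in PEO1 and 72.5 kb in PEO4. Median GC content was 46.3% against 50.5%, and 27 members (1.32%) were CpG rich, against 23.3% of all windows.

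Members were clustered along the genome. Merging adjoining windows gave 1693 regions, of which 1365 were 1 window, 305 were 2, and 23 were longer. The longest run held 6 windows, chr5:172740601-172746100, across and beyond the end of STC2, a stanniocalcin hormone gene, with PEA2 means from 3.50 to 7.53 FPKM and no other line above 1.30. Runs of 4 windows lay 71.8 kb from ZNF777 (chr7:149083201-149086900, 2.38 to 9.43 FPKM) and beside N4BP1 (chr16:48645001-48648700, 2.80 to 8.12 FPKM). At N4BP1, which codes for an RNA-cleaving inhibitor of inflammatory signalling, no other line exceeded 0.583 FPKM.

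By chromosome, members made up 6.43% of the windows of chromosome 20, 6.14% on chromosome 16, 5.34% on chromosome 5, 4.99% on chromosome 18 and 4.61% on chromosome 10. These 5 chromosomes held 47.6% of the members. The lowest shares were 0.262% on chromosome 19, 0.311% on chromosome 17 and 0.367% on chromosome 15. In bins of 5 Mb, the fullest were chromosome 20 from 20 to 25 Mb (67 members of 240 windows), chromosome 16 from 25 to 30 Mb (60 of 284), chromosome 18 from 30 to 35 Mb (50 of 255), chromosome 7 from 145 to 150 Mb (46 of 397) and chromosome 18 from 20 to 25 Mb (42 of 213). They held 12.9% of the members and 1.60% of the windows, and 232 of 566 bins held no member.

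**Figure D4:**
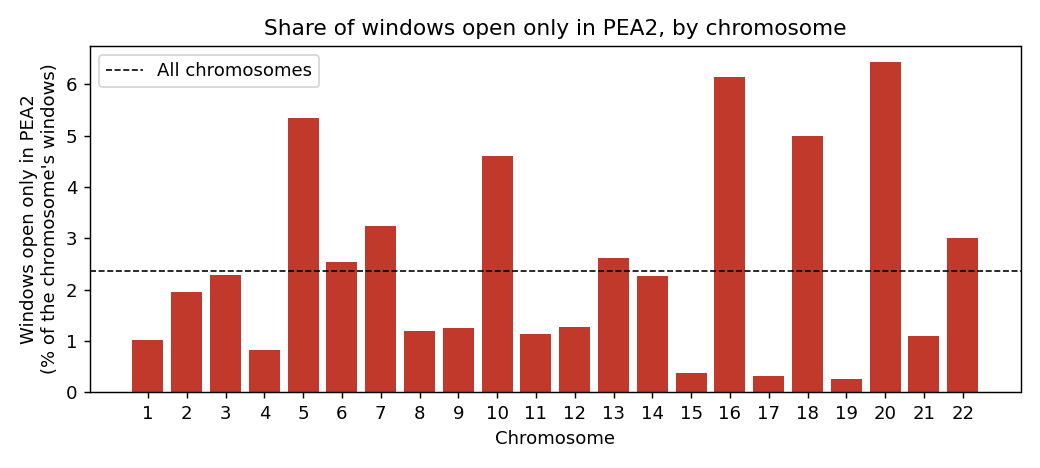
Windows open only in PEA2 as a percentage of all windows of each chromosome, with the dashed line at the share over all 22 chromosomes, 2.36%. Chromosomes 20, 16, 5, 18 and 10 stand above 4.6% and chromosomes 15, 17 and 19 below 0.4%.

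Neighbouring windows moved the same way in these regions. In the bins in which members lay, the windows that were not members had a log2 ratio of PEA2 to PEA1 of 0.82 (the median over members), compared with 0.27 over the bins of all windows, and members themselves had a median of 2.42. Bins with a median above 1 held 40.4% of the members and 12.5% of the windows. Each line was then divided by its median in the bin, members included, relative to its median over all windows. After this 845 windows met the conditions, and 564 of them were among the 2049 members (27.5%). Of the LINE-1 members 53.6% remained, of the other members 26.0%. The division also raised any line that was low in a bin, so a member could be lost through PEA2 or through another line. When libraries were instead centred on their medians, 1128 windows met the conditions and 806 were members. The part of DNA copy number in these regional levels was not tested.

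Of the 1102 genes with a nearest member, FOXA2 had the most, 24 of the 54 windows assigned to it. Such counts are of windows that passed the authors' depth filter, which members may have passed through their PEA2 reads. FOXA2 codes for a forkhead pioneer factor of endoderm and glands. Its members lay from 1.01 to 242.9 kb from the start on both sides, between 2.28 and 8.66 FPKM in PEA2, and in no other line did any exceed 2.35. The highest, chr20:22363201-22364200, downstream of the gene, measured 10.4, 7.46 and 8.08 FPKM in PEA2. PEA1 followed with 2.50, 3.05 and 1.49, and the other 12 libraries lay between 0.149 and 0.873. A further member, chr20:22709701-22710700, 144.1 kb upstream, had a mean of 7.07 ± 1.22 FPKM in PEA2 against 1.06 ± 0.441 in PEO1. The window over the FOXA2 start was not a member, but was at 14.3 ± 1.22 FPKM in PEA2, 6.67 ± 1.88 in PEA1, 4.67 ± 0.936 in PEO4, 4.41 ± 0.292 in PEO1, 0.814 ± 0.185 in CP70 and 0.727 ± 0.172 in A2780. Of the 24 members, none remained with the 5 Mb level removed and 13 with median centring.

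**Figure D5:**
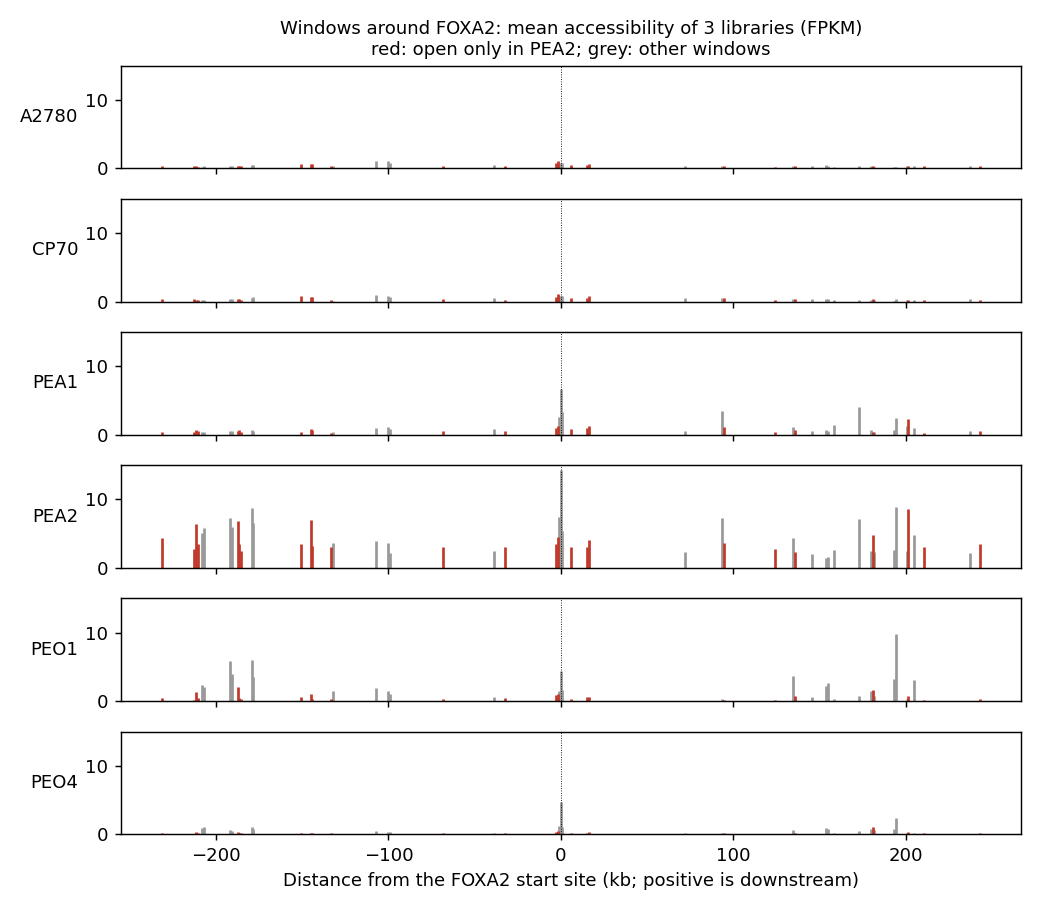
Mean accessibility (FPKM, 3 libraries) of the 54 windows within 250 kb of the FOXA2 start, 1 panel per line, by distance from the start in kb. Red marks the 25 windows open only in PEA2 and grey the rest. PEA2 was the highest line in 50 of the 54, against 16.7% of all windows. For the 25 red windows the choice of windows fixes this. The grey ones may have passed the authors' depth filter through their PEA2 reads, which favours PEA2. The count is therefore a description and carries no test.

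FHOD3, a formin that organises actin in muscle, had 18 members of 43 windows, spread over chr18:33882301-34216300. The highest, chr18:34215301-34216300, in an intron, measured 13.5, 8.50 and 11.4 FPKM in PEA2 and between 0.175 and 2.27 in the other libraries, with PEA1 highest of those. Another intronic member, chr18:34163101-34164100, had a PEA2 mean of 9.16 ± 1.93 FPKM and a ratio of 13.5. RIN2, which codes for an endosomal trafficking protein, had 11 members of 55 windows, and its highest, chr20:19894501-19895500, measured 11.4, 6.59 and 8.92 FPKM against 0.0758 to 1.99 elsewhere. On the short arm of chromosome 16, C16orf82 had 11 members of 25 windows and KDM8, a JmjC-domain oxygenase gene, had 10 of 20. The highest near C16orf82 measured 13.5, 8.73 and 10.6 FPKM, with PEO1 next at 2.97 ± 0.747. DUSP5, a nuclear phosphatase of ERK, had 11 members of 43 windows, all from 7.94 to 31.3 kb from its start, the highest at 6.04 ± 0.83 FPKM. Of these genes' members, 2 of 18 at FHOD3, 3 of 11 at RIN2 and none at C16orf82, KDM8 and DUSP5 remained with the 5 Mb level removed.

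CDH13, an atypical cadherin without a transmembrane part, had 9 members of the 11 windows that passed the depth filter, and STC2 had 9 of 33. The window at the CDH13 start was itself a member (3.31 ± 0.725 FPKM in PEA2 against 0.95 ± 0.577 in CP70). The window at the STC2 start was not, at 7.74 ± 0.631 FPKM in PEA2 against 14.6 ± 0.391 in PEO4. The gene model ENSG00000284209, near the centromere of chromosome 16, had 10 members of 61 windows, from 107.3 to 714.8 kb from its start. Next came 9 genes with 8 members each, among them INSM1, a neuroendocrine transcription factor gene, CDH6, a kidney cadherin gene, LAMA3, a laminin gene of epithelial basement membranes, and PTGER4, a prostaglandin receptor gene. With the 5 Mb level removed, 1 of 9 members remained at CDH13, 2 of 9 at STC2, 5 of 10 at ENSG00000284209, none of 8 at INSM1 and CDH6, 1 of 8 at LAMA3 and PTGER4, and 4 of 8 at MAN2A1, a mannosidase gene of the Golgi. A gene with 1 member was the usual case (649 of 1102).

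The most accessible member, chr7:149387401-149388400, 24.1 kb from KRBA1, measured 19.2, 12.3 and 15.6 FPKM in PEA2, with PEO1 second at 4.37 ± 0.699. A member nearest to GSG1L, chr16:27773101-27774100, in an intron of the ciliary gene KATNIP, measured 15.8, 11.4 and 12.7, with PEA1 second at 4.11 ± 0.853. A member in an intron of CCNJL, chr5:159687901-159688900, measured 15.3, 10.5 and 11.3, and no other library was above 1.77. Members near KCNK9 on chromosome 8 (11.9 ± 1.98), PDIA4 (11.5 ± 2.27) and in an intron of RREB1 (11.2 ± 1.49) followed. PEA2 replicate 1 was the highest and replicate 2 the lowest in 4 of these 6 windows. Further windows with large ratios were not of the LINE-1 family, near PPP2R2D (5.54 ± 0.424 FPKM in PEA2, ratio 17.7), MAF (4.65 ± 0.887, ratio 18.4) and N4BP1 (8.12 ± 1.38, ratio 14.5).

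The 31 promoter members belonged to 29 genes. The highest was ZNF467, a zinc finger gene, at 8.91 ± 1.31 FPKM in PEA2 and 2.78 ± 0.158 in PEO1, followed by the interleukin-21 receptor gene IL21R (8.07 ± 1.19 against 2.65 ± 0.812 in PEO1). A start of SUB1, a transcription coactivator gene, measured 6.42 ± 1.49, and a second start of the gene 4.90 ± 0.474, with PEA1 next at 1.62 ± 0.113 and 1.51 ± 0.354. FGF23, the bone hormone that lowers phosphate, was at 5.17 ± 0.547 with no other line above 0.64, and NLRP10, an innate immune gene, was at 4.80 ± 0.866 against 0.94 ± 0.26 in PEO1. RANBP3L (5.36 ± 0.79), HSD17B2, which inactivates oestradiol (4.71 ± 1.21), and TTC6 (4.50 ± 0.685) had PEA1 in second place. So did SAA2, an acute-phase serum protein gene, at 4.30 ± 0.402 against 1.16 ± 0.411, and its near-identical neighbour SAA1, at 3.88 ± 1.13 against 1.06 ± 0.171. Reads may have been divided or lost between these copies, and both values are uncertain.

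Around genes of the chosen lists members were counted within 100 kb of a start. Of 18877 protein-coding genes, 1632 (8.65%) had one there. Among serous and Mullerian lineage genes 2 of 20 had, EMX2 with 7 members (2.74 to 5.89 FPKM) and SOX17 with 1. Among mesenchymal genes 2 of 20 had, FN1, the fibronectin gene, with 7 (2.39 to 3.77 FPKM) and SPARC with 2. No gene of 20 for epithelial identity had any. Among receptor tyrosine kinases 3 of 25 had, FGFR2 with 3 intronic members up to 6.35 ± 1.87 FPKM, KDR with 3 up to 4.45 ± 1.48, and KIT with 2 up to 4.12 ± 1.08. For TGF-beta the count was 3 of 22 (TGFB1I1, BMP2 and BMP7), for AP-1 2 of 13 (BATF3 and MAFK), and for YAP and TEAD 2 of 15 (AMOTL2 and ANKRD1). For neuronal adhesion it was 1 of 19 (CNTNAP2, 5 members), for homologous recombination and Fanconi genes 1 of 23 (PALB2) and for platinum and drug transport 2 of 14. The transport genes were ABCG2, an efflux pump, with 2 members (2.44 and 2.71 FPKM against at most 0.444 elsewhere), and ABCC1 with 1 (2.99 ± 0.15). No list held more than 3 such genes, and no difference from the share over all genes was tested.

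The label of PEA2 was checked at the starts of marker genes, where accessibility is not expression. Of the serous markers, MUC16 had no window over a start here. Several starts were lower in PEA2 than in the PEO lines, with PAX8 at 2.47 ± 0.501 FPKM in PEA2 against 7.90 ± 0.605 in PEO1, WT1 at 4.10 ± 0.634 against 16.5 ± 0.91, EPCAM at 2.09 ± 0.44 against 11.3 ± 0.6 and KRT8 at 1.57 ± 0.166 against 7.34 ± 0.694. SOX17 went the other way, at 2.33 ± 0.334 in PEA2 against 0.721 ± 0.0593 in PEO1 and 0.661 ± 0.218 in PEO4, and MECOM was at 2.70 ± 0.158 in PEA2, 7.12 ± 1.28 in PEO1 and 1.52 ± 0.438 in PEO4. PEA1, from the same patient as PEA2, was also below PEO1 at PAX8 (3.37), WT1 (1.97), EPCAM (1.10) and KRT8 (2.57). PEA2 was above PEA1 at WT1 and EPCAM and below it at PAX8 and KRT8. In PEA1, SOX17 was at 1.30 and MECOM at 2.64. Over all windows the median was 2.83 FPKM in PEO1 and 1.77 in PEA2. Of 13 markers of fibroblasts, leukocytes and endothelium, only COL1A2 (1.12 ± 0.141), CD68 (2.18 ± 0.396), CD14 (3.78 ± 0.339) and KDR (2.79 ± 0.214) had a window over a start, and none of these windows was a member.

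Whether the windows also differed among lines other than PEA2 was tested with limma on log2(FPKM + 0.1), over all 86965 windows, with the study's thresholds of a log2 change over 2 and an adjusted p under 0.001. The choice of windows caps the means of these lines and so bounds their differences. In PEO4 against PEO1, 5 members were higher and 24 lower (0.244% and 1.17% of members), against 2.54% and 4.99% of all windows. The median log2 change was -0.14 in members and -0.24 over all windows, and median centring turned the members' median to 0.09. The split depended on the setting: median centring gave 5 higher and 7 lower (3.34% and 2.57% of all windows), and edgeR on recovered reads 24 and 34 (4.05% and 3.96%). A pseudocount of 0.5 FPKM gave 0 and 3 members, against 788 and 1651 of all 86965 windows. With a log2 change over 1 and an adjusted p under 0.05, 108 members were higher and 283 lower, against 9.94% and 21.4% of all windows. The window near KRBA1 was lower in PEO4 (log2 change -3.19, SE 0.272, limma adjusted p = 1.07e-09), and so was the highest window of RIN2 (-2.18, SE 0.383, limma adjusted p = 3.33e-05). For the window near KRBA1, PEO1 lay between 3.57 and 4.80 FPKM and PEO4 between 0.249 and 0.523.

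In CP70 against A2780, limma called none of the 2049 members (0.193% of all windows were higher and 0.202% lower), and 278 members (13.6%) had an unadjusted p under 0.05, against 35.8% of all windows. edgeR on recovered reads called 5, all lower, against 0.125% of all windows higher and 0.583% lower. At the wider thresholds 6 members were higher and 43 lower, against 5.58% and 2.15% of all windows.

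In PEO1 against PEA1, the sensitive lines of the patient pairs, 18 members were higher and 68 lower (0.878% and 3.32%), against 27.2% and 3.17% of all windows. The median log2 change was -0.17 in members and 1.20 over all windows. PEO1 had the higher level over all windows and the choice of windows caps it, so the members' position below all windows follows in part from the choice. With median centring the counts were 1 higher and 336 lower, against 7.72% and 8.84% of all windows, and edgeR on recovered reads gave 1 and 560, against 9.0% and 11.1%. At the wider thresholds 203 members were higher and 406 lower, against 56.0% and 8.57% of all windows. The window of GSG1L was lower in PEO1 (log2 change -3.87, SE 0.325, limma adjusted p = 8.41e-13), as were the windows at the TTC6 start (-2.89, SE 0.424, limma adjusted p = 1.73e-07) and in CCNJL (-2.07, SE 0.355, limma adjusted p = 2.68e-06). The window near KRBA1 was higher in PEO1 (2.39, SE 0.234, limma adjusted p = 3.47e-11). Of the 110 LINE-1 members, 7 were lower in PEO1 and none higher, with a median of -0.90, and in PEO4 against PEO1 1 was higher and none lower.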

How the data were processed

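The authors aligned paired ATAC-seq reads to hg19 with Bowtie2, keeping reads that aligned to 1 place, marked duplicates with Picard, removed mitochondrial reads and blacklisted regions, and counted reads in windows of 1000 bp every 900 bp. They filtered windows by a minimum and a maximum read depth, and the deposited FPKM values cover 89428 windows. How the depth was taken over the lines is not stated. As each window is 1 kb, these deposited FPKM values equal RPM (reads scaled to library depth), and in all 18 libraries they gave whole reads (100% of values within 0.01 of a whole number). The edgeR alternative used these recovered reads. The windows studied here and all lists were chosen with earlier results of these data known.

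Each window was annotated by its centre with GENCODE release 44 lifted to GRCh37 (window positions were checked against chromosome lengths) and its sequence read from GRCh37. Genes named were those with most members, the members with the highest PEA2 mean, ratio or promoter level, the longest runs and the genes of fixed lists. The LINE-1 family and SAA1 were named after values were seen. CpG rich means GC over 50% and an observed to expected CpG ratio over 0.6. Tests used limma 3.58.1 (trend, R 4.3.3, Benjamini-Hochberg over 86965 windows, two-sided) on log2(FPKM + 0.1) within each pair of lines, without a filter, checked on simulated data, with edgeR 4.0.16 as an alternative. The low counts of the members outside PEA2 (a median of 4 reads per window in PEO1 replicate 3) limit these tests. The simulated data held changes only at windows over 1 FPKM in PEO1, a level that most members did not reach there. They therefore do not show how well changes at members are found. Some sequences and 1 gene are not reported here.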

Additional observations from a re-analysis of the deposited data

Results flagged for a closer look

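On chromosome X, which the choice of windows left out, 10 of 2460 windows met the same conditions in PEA2 (0.407%, against 2.36% on chromosomes 1 to 22). None did so in A2780, CP70 or PEA1, while 11 did in PEO4 (0.447%) and 317 in PEO1 (12.9%). On chromosomes 1 to 22, 325 of 86965 windows did so in PEA1, 1694 in PEO4 and 3357 in PEO1. The highest of the 10 lay in an intron of MSN, the moesin gene, at 3.40 FPKM in PEA2 against at most 1.00 in another line, and was adjoined by a further one, and the others were spread along the chromosome.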

How the results depend on the processing

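The number of windows, 2049, became 2959 with a minimum of 1 FPKM, 819 with 3 FPKM, 3907 at a ratio of 2, 734 at a ratio of 5, 1364 against the highest other library, 1128 with median centring, 2647 with quantile normalization and 845 with the 5 Mb level removed. Leaving out each library gave 1876 to 3058, the highest without PEA2 replicate 2. Members called in PEO4 against PEO1, 29, became 3 and 0 with pseudocounts of 0.5 and 1 FPKM, 8 with a filter at a mean of 1 FPKM, 12 with median centring (5 and 7), 7 with quantile normalization, 58 with edgeR (24 higher, 34 lower) and 391 at the wider thresholds, and 25 to 39 leaving out each library. In CP70 against A2780, 0 became 2 with median centring, 1 with quantile normalization, 5 with edgeR and 49 at the wider thresholds, and 0 to 1 leaving out each library, the 1 without CP70 replicate 2. In PEO1 against PEA1, 86 became 2 and 1 with the pseudocounts, 14 with the filter, 337 with median centring, 166 with quantile normalization, 561 with edgeR and 609 at the wider thresholds, and 57 to 108 leaving out each library, 57 without PEA1 replicate 2. The filter left 152 members of 75258 windows tested in PEO4 against PEO1, so its count is not of 2049. It left 177 of 74107 in PEO1 against PEA1 and 19 of 36178 in CP70 against A2780. Over all windows it called 2097 higher and 4181 lower in PEO4 against PEO1, and 23092 and 2164 in PEO1 against PEA1. Quantile normalization called 2069 and 1820 of all windows in PEO4 against PEO1, and 7082 and 6607 in PEO1 against PEA1. The causes were not tested. One fit over all 18 libraries gave 31, 0 and 89.

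With the replicate number as a block the counts were 31, 0 and 83. Same-numbered libraries did not deviate together (correlations from -0.133 to 0.055), so the numbers were not used as a pairing. Adding noncoding transcripts moved the intergenic share from 53.8% to 36.0%. Requiring 1 or 40 shared runs for the LINE-1 family, alternatives added after seeing the data, moved the share of its windows that were members from 30.1% to 23.9% and 35.5%.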
